A study of Mus musculus with 6 samples.

Results

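Chemokines, interleukins and their receptors, with tumor necrosis factor, the transforming growth factor betas, colony stimulating factor 1 and the TNF receptors, were examined in the irradiated mouse cortex. The genes were taken by name: every gene of the count table whose symbol opens with Ccl, Cxcl, Ccr, Cxcr or Il followed by a digit, without Ccl27a and Il11ra1, and Tnf, Tnfrsf1a, Tnfrsf1b, Tgfb1, Tgfb2, Tgfb3 and Csf1. The names gave 143 of the 51826 genes in the table, and no measured level was used to choose them. Of these, 71 had 10 or more counts in 3 or more of the 6 libraries, and 72 had fewer. Among the latter, 22 had no count in any library, and the highest count of any of the other 50 in a single library was 21.

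Bulk polyA RNA sequencing was performed on the cortex of 3 Lgmn+/+ (WT-IR) and 3 Lgmn−/− (KO-IR) male Balb/c mice, 6–8 weeks old. All 6 brains had received whole-brain irradiation with 10 Gy of X-ray, and the cortices were taken on day 3. Lgmn encodes asparagine endopeptidase (AEP, legumain), a lysosomal protease, and the question was which transcripts differ between the genotypes after irradiation. The Lgmn−/− mice carried a floxed allele made in embryonic stem cells, in the form Lgmn flox/flox: Cre+. The driver of Cre is not given in the sources used here, and the libraries hold no unirradiated mice, so no value given here measures the effect of irradiation itself.

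The libraries held 41874462 to 46829441 counts. Lgmn (chromosome 12, 102394084 to 102439813, GRCm38) had 5558, 5528 and 5775 counts in WT-IR and 3703, 3269 and 4109 in KO-IR, a log2 fold change of −0.64 (SE 0.12, adjusted p = 0.0315 in edgeR's quasi-likelihood test). The KO-IR libraries were lower but still held counts for Lgmn, and a total per gene does not show where along the gene they lie. Markers of red blood cells stood apart, with a summed level of 7.59 to 15.8 CPM (counts scaled to a common library size) in WT-IR and 234 to 2270 CPM in KO-IR, and all 5 markers were called higher. The summed level of 4 oligodendrocyte markers was 2090 to 2530 CPM in WT-IR and 1470 to 1630 CPM in KO-IR, and that of 6 microglia markers was 179 to 204 and 150 to 165 CPM. Every marker of neurons, astrocytes and microglia had counts in all 6 libraries. In bulk tissue, fewer cells of a type and less RNA per cell cannot be told apart.

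Chemokines are small secreted proteins that guide migrating cells through G protein coupled receptors, and a receptor often answers to several chemokines. Interleukins are secreted signals between cells, and most act through receptors of several chains, among which a chain such as Il6st or Il2rg is shared by many ligands. In the brain, microglia depend on interleukin 34 and CSF1 through their shared receptor, Cxcl12 is made by vessels and neurons, and interleukin 33 is stored in the nuclei of glia as an alarm signal released on damage.

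As a class, the genes were a small part of the transcriptome and slightly larger in KO-IR. Their summed counts were 54.4, 58.8 and 54.6 per 100000 in WT-IR and 63.4, 64.3 and 60.9 per 100000 in KO-IR, without overlap between the groups. Cxcl14 alone made up 19.5 to 24.5% of these counts. The typical gene did not follow: the median log2 fold change (KO-IR minus WT-IR) of the 70 genes that passed the filter on low counts was 0.02, against −0.01 for all 18345 genes tested, and 37 of the 70 were above 0 (52.9%, against 48.3% of all genes).

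Of the 70 genes tested, 3 were called, meaning a log2 fold change beyond 1 in either direction with adjusted p below 0.05 (4.29%, against 2.06% of all genes). Il33 and Il15 were higher in KO-IR (2.86%, against 0.959%) and Ccl27b was lower (1.43%, against 1.1%). Without the fold threshold Il18 was added, which made 4 genes (5.71%, against 3.33%). An unadjusted p under 0.05 was found for 22 genes, these 4 among them (31.4%, against 18.6%). The counts scaled to library size did not overlap between genotypes in 25 genes, 17 of them higher in KO-IR (24.3%, against 12.4%) and 8 lower (11.4%, against 13.3%). Low-count genes among them, such as Ccl9 and Ccl27b, had 10 counts in every library of their higher group only, so these shares depend partly on the filter. The plot of fold changes shows 69 of the 70 genes with their intervals.

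**Figure D1:**
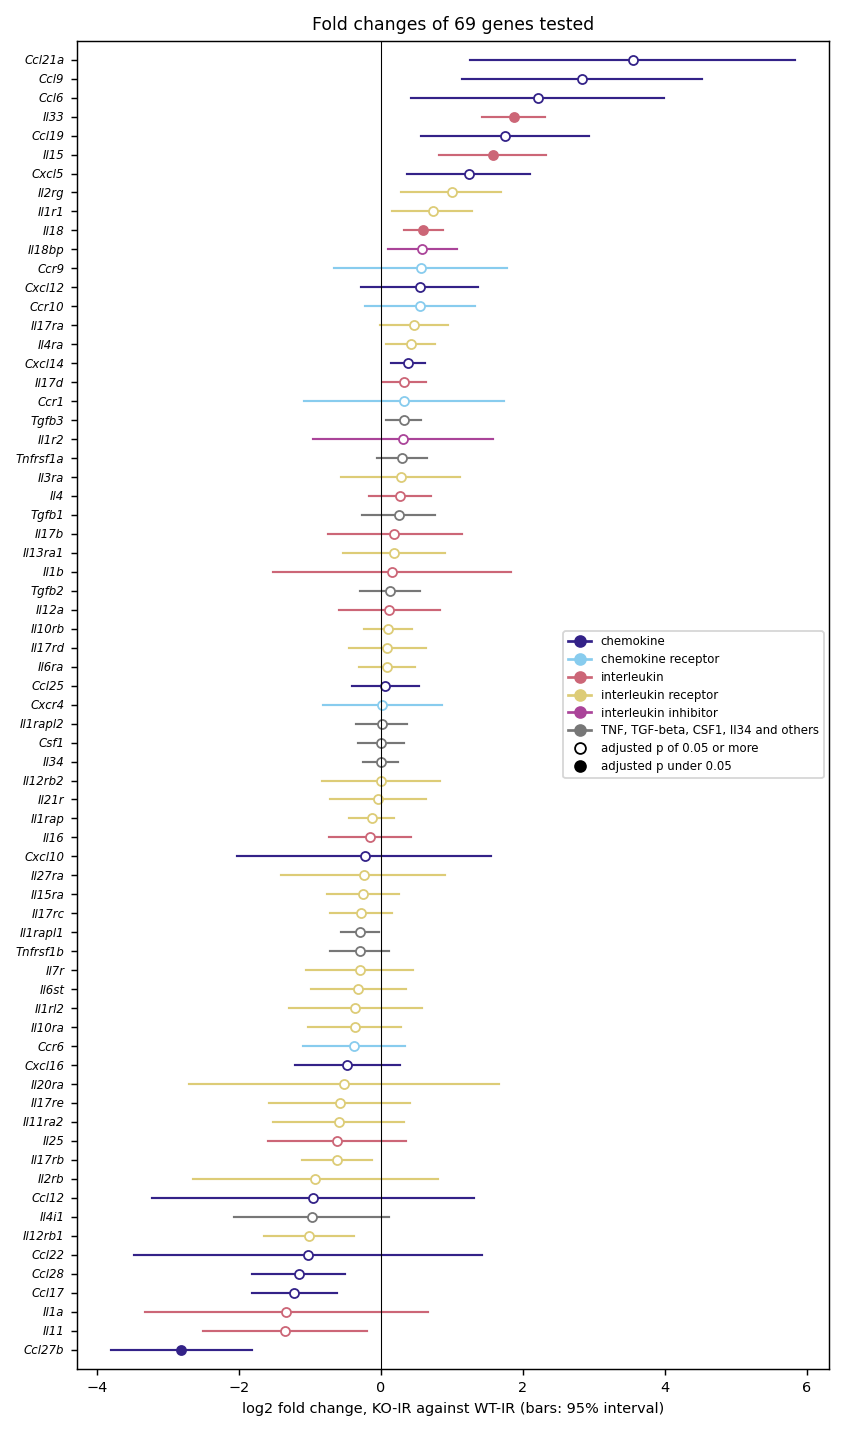
Log2 fold change (KO-IR against WT-IR, n = 3 each, x axis) of 69 of the 70 genes tested, 1 row each, coloured by role, with bars for the 95% interval and filled points for an adjusted p under 0.05. The points of Il33, Il15, Il18 and Ccl27b are filled, with the interval of Ccl27b below 0 and the others above 0. The largest fold changes, of Ccl21a (3.55) and Ccl9 (2.83), have wide intervals that also lie above 0, but open points.

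Of the 35 chemokine ligands, 16 had 10 counts in 3 libraries and 15 were tested. Among these, 1 was called, Ccl27b (6.67%, against 2.06% of all genes), and 9 had an unadjusted p under 0.05 (60%, against 18.6%). Without overlap between the groups, 6 were higher in KO-IR (40%, against 12.4%) and 3 lower (20%, against 13.3%). Ccl9, Cxcl5, Ccl6, Ccl19 and Ccl21a had 10 or more counts in every KO-IR library but not in every WT-IR library, and Ccl27b the reverse. Each entered the test through the group where it was higher, so these shares depend partly on the filter.

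Ccl27b has near-identical copies on chromosome 4, so its sequence is shown before its values. Ccl27b and Ccl27a both encode the skin chemokine CTACK, and Gm13306 is a predicted gene with the same coding stretch. The lines give the same 187 bases of the 3 transcripts, 5′ to 3′, from GENCODE M21 (GRCm38), counted from base 201 of the Ccl27b transcript, with capitals at the only positions in this stretch where any of the 3 differ. Ccl27b lies at chr4:42655251-42656005 on the plus strand, Gm13306 at chr4:42153436-42158839 on the plus strand, and Ccl27a at chr4:41769467-41774247 on the minus strand.
Ccl27b: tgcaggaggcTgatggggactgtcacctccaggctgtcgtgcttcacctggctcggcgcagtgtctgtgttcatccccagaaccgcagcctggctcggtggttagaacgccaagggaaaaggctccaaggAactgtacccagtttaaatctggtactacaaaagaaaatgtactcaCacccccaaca
Gm13306: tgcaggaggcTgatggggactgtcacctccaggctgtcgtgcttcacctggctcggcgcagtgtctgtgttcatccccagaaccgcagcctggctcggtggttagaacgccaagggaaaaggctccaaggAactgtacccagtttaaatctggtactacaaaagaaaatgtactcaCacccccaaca
Ccl27a: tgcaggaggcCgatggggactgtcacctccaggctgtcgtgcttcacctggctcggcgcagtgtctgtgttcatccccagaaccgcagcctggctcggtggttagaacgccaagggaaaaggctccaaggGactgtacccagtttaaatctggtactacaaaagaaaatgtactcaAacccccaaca
The substitutions, with the base of Ccl27b first and positions counted from 1 at the 5′ end of its transcript, are T211C, A331G and C377A. Ccl27b and Gm13306 do not differ at any base of the stretch, so a read from it that spans no capital fits all 3 genes, and a read that spans a capital still fits both Ccl27b and Gm13306.

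The same holds for Ccl21b and Ccl21a, copies of the lymphoid chemokine that draws cells bearing Ccr7. Here 131 bases of the coding sequence, from base 74 of the Ccl21b transcript, hold 2 differences, A84T and T194C with the base of Ccl21b first. Ccl21b lies at chr4:42255767-42256432 on the plus strand and Ccl21a at chr4:42772860-42773993 on the minus strand. Gm10591, Gm13304 and Gm21541 match Ccl21b at 100% identity over 402 bases, so a read that spans a capital of Ccl21b fits them too.
Ccl21b: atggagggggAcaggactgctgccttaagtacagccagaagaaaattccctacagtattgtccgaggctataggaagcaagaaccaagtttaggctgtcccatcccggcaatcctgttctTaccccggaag
Ccl21a: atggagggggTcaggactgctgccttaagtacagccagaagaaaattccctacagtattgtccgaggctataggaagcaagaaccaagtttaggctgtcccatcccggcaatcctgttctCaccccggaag

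Ccl27b had 71, 49 and 37 counts in WT-IR and 7, 11 and 5 in KO-IR. Every KO-IR library was below every WT-IR library. The log2 fold change was −2.81 (SE 0.42, 95% interval −3.8 to −1.81, adjusted p = 0.0169 in edgeR's quasi-likelihood test), from 1.21 ± 0.429 to 0.169 ± 0.0624 CPM (SD, n = 3). Neither copy passed the test. Ccl27a, which held most counts of the family, had 1487, 686 and 604 counts in WT-IR and 1801, 2583 and 2053 in KO-IR (log2 fold change 1.16, adjusted p = 0.147). Gm13306 had 395, 257 and 213 counts and then 173, 260 and 167 (log2 fold change −0.58, adjusted p = 0.328).

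Ccl27b held a small share of the counts that the copies divide: 3.64, 4.94 and 4.33% of the family's counts in WT-IR and 0.353, 0.385 and 0.225% in KO-IR. Summed over all 3 genes, the family had 1953, 992 and 854 counts in WT-IR and 1981, 2854 and 2225 in KO-IR, and the log2 fold change was 0.84 (adjusted p = 0.232 in edgeR's quasi-likelihood test), the opposite sign to that of Ccl27b. How the counting shared reads between copies is not given in the sources used here, so the fall of Ccl27b is uncertain as a change of Ccl27 transcripts. Among the 59 other genes tested within 1 Mb of Ccl27b, 17 were called, most of them predicted genes or genes of the Fam205 family. Without WT-IR replicate 1, WT-IR replicate 2, KO-IR replicate 1 or KO-IR replicate 3 the adjusted p of Ccl27b was 0.0516, 0.0715, 0.0617 and 0.0716.

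**Figure D2:**
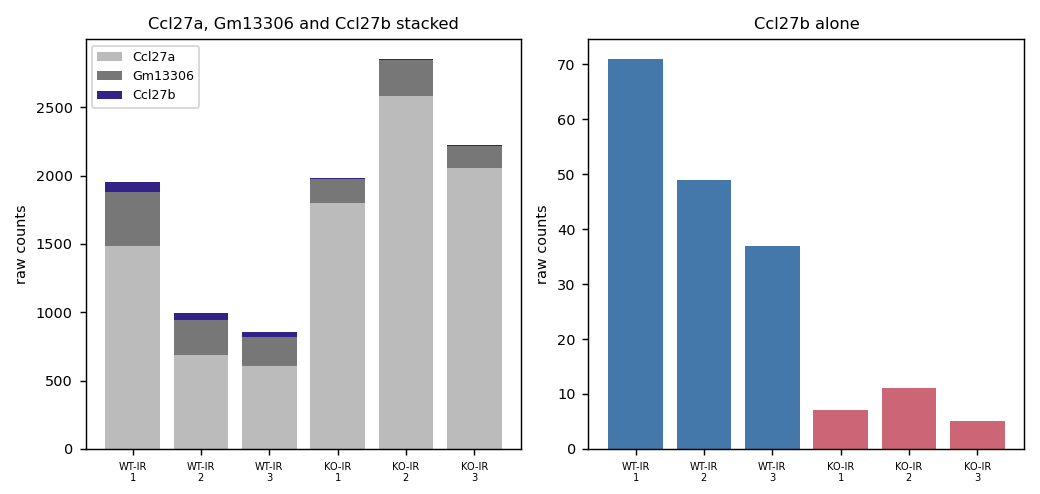
Raw counts (y axes) per library for Ccl27a, Gm13306 and Ccl27b stacked (left) and for Ccl27b alone (right), WT-IR and KO-IR replicates 1 to 3. The Ccl27b segment is thin in every library and falls from 37 to 71 counts in WT-IR to 5 to 11 in KO-IR, while the whole stack ranges from 854 to 1953 and from 1981 to 2854 counts.

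Ccl21a had the largest fold change of all the genes, on few counts. It had 10, 0 and 9 counts in WT-IR and 158, 28 and 44 in KO-IR. The groups did not overlap, but KO-IR replicate 1 held most of the counts, and the log2 fold change of 3.55 (SE 0.98, 95% interval 1.25 to 5.84) had an adjusted p of 0.113 in edgeR's quasi-likelihood test and fell to 2.45 without that library. Ccl21b had 0, 0 and 1 counts in WT-IR and 4, 1 and 3 in KO-IR. With every copy summed, Gm10591, Gm13304 and Gm21541 included, the log2 fold change was 3.41 (adjusted p = 0.119 in the same test). No gene of the count table was named Ccl21c.

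Ccl19, the other ligand of Ccr7, had 9, 6 and 12 counts in WT-IR and 52, 21 and 21 in KO-IR (log2 fold change 1.75, SE 0.5, adjusted p = 0.126). As with Ccl21a, KO-IR replicate 1 was the highest library. Ccl19 too has near-identical copies, Ccl19-ps1, Ccl19-ps3, Gm12407 and Gm2564 (98.9 to 100% identity). With every copy summed the log2 fold change was 1.62 (adjusted p = 0.111 in edgeR's quasi-likelihood test). Ccr7 itself had 6, 2 and 6 counts and then 6, 4 and 0, too few to be tested. Stromal and endothelial cells are textbook sources of Ccl19 and Ccl21, and in these libraries the summed level of 5 fibroblast markers was 47.5 to 57.2 CPM in WT-IR and 66.7 to 67.9 CPM in KO-IR, and that of 4 endothelial markers 85.1 to 124 and 107 to 170 CPM. The part of these cells in the values of Ccl19 and Ccl21a was not tested.

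The neighbouring genes Ccl9 and Ccl6, myeloid chemokines of chromosome 11 that act on Ccr1, were also higher in every KO-IR library. Ccl9 had 8, 6 and 0 counts in WT-IR and 26, 42 and 38 in KO-IR (log2 fold change 2.83, SE 0.72, adjusted p = 0.0933). Ccl6 had 11, 0 and 6 counts and then 34, 24 and 24 (log2 fold change 2.21, SE 0.76, adjusted p = 0.186). Neither passed in edgeR's quasi-likelihood test, and both moved when 1 library was left out: without WT-IR replicate 1 the log2 fold changes were 3.47 and 3.13, and that of Ccl9 was 2.24 without WT-IR replicate 3. Ccr1 overlapped between the groups, with 34, 15 and 8 counts in WT-IR and 38, 16 and 20 in KO-IR. The 32 other genes tested within 1 Mb of Ccl9 had a median log2 fold change of −0.03.

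Ccl17 and Ccl28 were lower in every KO-IR library but also missed the threshold. Ccl17, a ligand of Ccr4, had 105, 107 and 92 counts in WT-IR and 36, 61 and 38 in KO-IR. Its log2 fold change was −1.22 (SE 0.26, 95% interval −1.82 to −0.62, adjusted p = 0.0536 in edgeR's quasi-likelihood test), and the adjusted p was 0.0388 without KO-IR replicate 2 and 0.118 to 0.192 without any other library. Ccl22, the other Ccr4 ligand, which lies near Ccl17 on chromosome 8, had 14, 11 and 3 counts and then 12, 0 and 2, with overlap. Ccr4 had no count in any library.

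Ccl28, a mucosal chemokine and ligand of Ccr10, had 135, 152 and 267 counts in WT-IR and 71, 104 and 79 in KO-IR (log2 fold change −1.16, SE 0.28, adjusted p = 0.0813). Ccr10, which also binds the product of the Ccl27 genes, had 21, 16 and 18 counts in WT-IR and 37, 24 and 22 in KO-IR, higher in every KO-IR library, with a log2 fold change of 0.55 and a 95% interval of −0.23 to 1.33. Ccl24, an eosinophil chemokine, reached the minimum only in WT-IR, with 14, 12 and 10 counts against 6, 0 and 4, and did not pass the filter for the test.

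**Figure D3:**
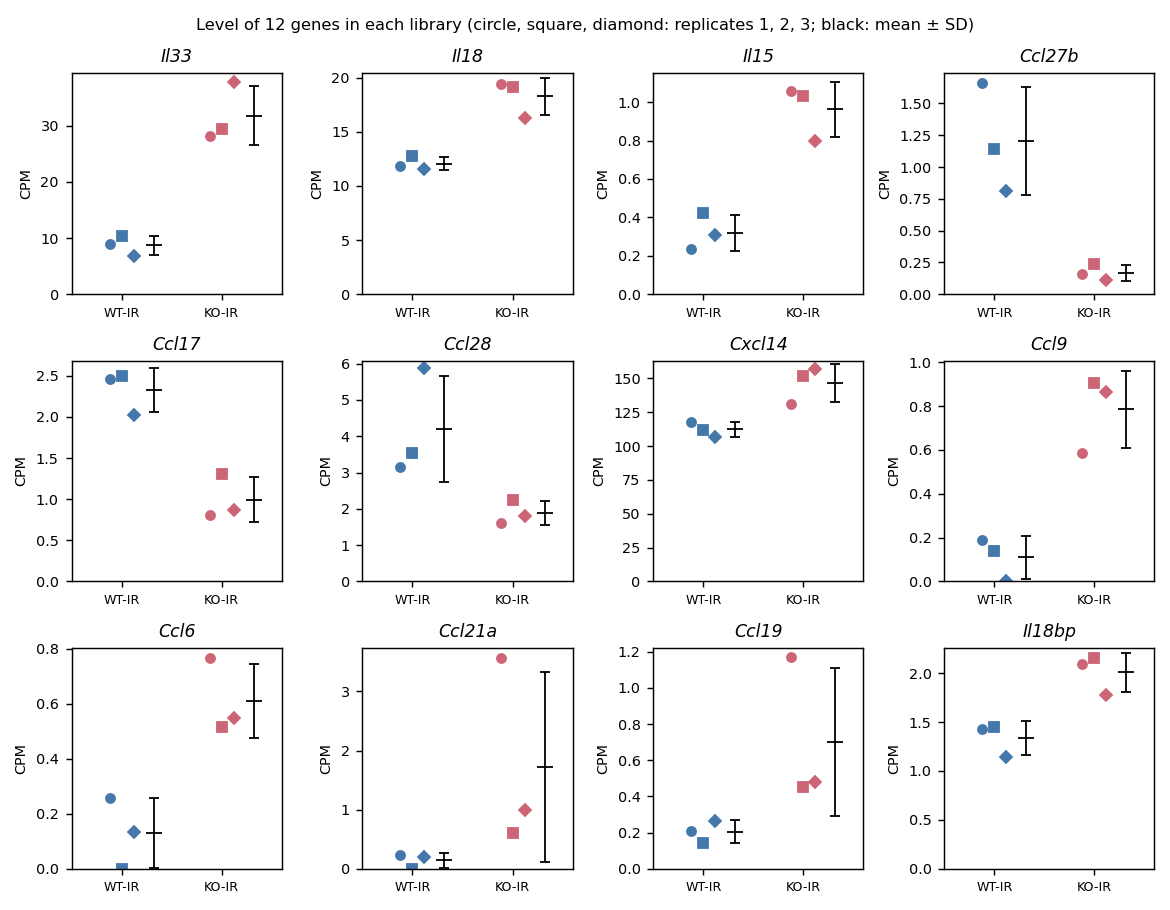
Level in CPM (y axes, linear from 0) of 12 genes in the 3 WT-IR and 3 KO-IR libraries, with the mean and SD in black. Il33, Il18, Il15, Cxcl14, Ccl9, Ccl6, Ccl21a, Ccl19 and Il18bp are higher in every KO-IR library and Ccl27b, Ccl17 and Ccl28 lower, and replicate 1 stands above the other KO-IR libraries for Ccl21a and Ccl19.

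The abundant chemokines were Cxcl14 and Cxcl12. Cxcl14, made in brain by interneurons among other cells, had the highest level per length of all the genes, 55.1 FPKM (a level scaled to gene length and depth) on average in WT-IR and 69.9 FPKM in KO-IR. Its counts were 5032, 4812 and 4861 in WT-IR and 5813, 7072 and 6910 in KO-IR. The difference of 0.39 on the log2 scale (SE 0.1, 95% interval 0.15 to 0.62) separated the groups, but its adjusted p was 0.0961 in edgeR's quasi-likelihood test.

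Cxcl12, the ligand of Cxcr4, had 1446, 2288 and 1815 counts in WT-IR and 4373, 2234 and 1715 in KO-IR. Only KO-IR replicate 1 stood above the WT-IR range, and without that library the log2 fold change moved from 0.55 (SE 0.35, adjusted p = 0.458) to 0.04. In the KO-IR replicates Cxcl12 was at 98.4, 48.1 and 39.1 CPM, against a WT-IR mean of 42.4 CPM, and the summed level of endothelial markers was 170, 107 and 156 CPM. The part of these cells was not tested. Cxcr4 had 59, 82 and 85 counts and then 105, 43 and 86, a log2 fold change of 0.02 with a 95% interval of −0.82 to 0.86.

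The remaining chemokines with 10 counts in 3 libraries were few. Cxcl5, a neutrophil chemokine, had 7, 5 and 8 counts in WT-IR and 15, 20 and 14 in KO-IR (log2 fold change 1.24, adjusted p = 0.138), and its receptor Cxcr2 had counts in 2 KO-IR libraries only, 4 and 2. Ccl25, Cxcl16, Ccl12 and Cxcl10, an interferon-induced ligand of Cxcr3, overlapped between the groups. Cxcl10 had 10, 14 and 1 counts in WT-IR and 10, 6 and 6 in KO-IR.

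Of the chemokines that the study takes up as mediators of radiation injury, Ccl2 was close to the limit of detection. It had 0, 3 and 3 counts in WT-IR and 11, 0 and 6 in KO-IR, where 3 counts, 0.0641 to 0.0716 CPM, is the level that a count of 0 still allows in these libraries for counting error alone. Ccr2, its receptor on monocytes, had 8, 2 and 8 counts and then 4, 2 and 1. The summed level of 5 markers of monocytes or border macrophages was 10.8 to 16.6 CPM in WT-IR and 3.99 to 6.93 CPM in KO-IR, and 1 was called lower. Of these, Ly6c2 had 287, 529 and 371 counts and then 43, 35 and 45, while Cd163, Lyve1, Mrc1 and Pf4 overlapped between the groups. The part of these cells in the values of Ccl2 and Ccr2 was not tested. Ccl3, Ccl4, Ccl5, Ccl7, Ccl8, Cxcl1, Cxcl2, Cxcl9, Cxcl11 and Cxcl13 each had 8 counts or fewer in every library, so a difference in them was not detectable at this depth. Ccl20, Ccl26 and Cxcl15 had no count.

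Among chemokine receptors, 6 of 17 had 10 counts in 3 libraries, among them Ccr1, Ccr10 and Cxcr4. None of the 6 had an unadjusted p under 0.05 in edgeR's quasi-likelihood test, and none was called by DESeq2. Ccr6, a receptor of lymphocytes and dendritic cells, had 31, 45 and 40 counts in WT-IR and 34, 37 and 21 in KO-IR, with overlap (log2 fold change −0.38, 95% interval −1.1 to 0.34). Ccr4, Ccr8 and Cxcr6 had no count, and Cxcr1, Cxcr2, Cxcr3 and Cxcr5 had at most 4 in any library. These are receptors of lymphocytes and neutrophils, and the defining markers Cd3d and Cd3e of T cells, Ms4a1 of B cells and Ly6g of neutrophils also had no count in any library. Other markers of these lists did have counts. Cd4 had 206, 713 and 1227 counts in WT-IR and 1042, 89 and 106 in KO-IR, Cd79a had 14 to 33 in every library, and S100a8, S100a9 and Retnlg had 23, 32 and 10 in KO-IR replicate 1 and at most 7 elsewhere. The summed level of the 5 T cell markers was 4.83 to 27 CPM in WT-IR and 1.92 to 23.5 CPM in KO-IR, that of the 3 B cell markers 0.374 to 0.66 and 0.315 to 0.711 CPM, and that of the 5 neutrophil markers 0.0467 to 0.198 and 0 to 1.46 CPM.

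Of the 37 interleukin genes, 12 had 10 counts in 3 libraries and 13 had no count in any library. Il33 and Il15 were called higher in KO-IR (16.7% of the 12, against 2.06% of all genes called in either direction and 0.959% called higher), and Il18 had an adjusted p under 0.05 below the fold threshold. With Il17d and Il11, 5 had an unadjusted p under 0.05 (41.7%, against 18.6%).

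Il33 had the smallest adjusted p of the interleukins. It had 381, 439 and 312 counts in WT-IR and 1251, 1364 and 1659 in KO-IR. The lowest KO-IR library was far above the highest WT-IR library, and the level rose from 8.68 ± 1.71 to 31.8 ± 5.25 CPM (SD, n = 3), or from 3.12 to 11 FPKM on average. The log2 fold change was 1.87 (SE 0.19, 95% interval 1.43 to 2.31), a 3.66-fold difference, with an adjusted p of 0.00327 in edgeR's quasi-likelihood test, and it stayed called without any of the 6 libraries in turn (adjusted p 0.0094 to 0.0203). Il33 lies on chromosome 19, 29925114 to 29960718, and the 21 other genes tested within 1 Mb had a median log2 fold change of 0.03.

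Oligodendrocytes and astrocytes are known to hold interleukin 33 in the mouse brain. Their marker sums moved in opposite directions, with astrocytes at 760 to 876 CPM in WT-IR and 965 to 1020 CPM in KO-IR, a ratio of 1.22, and oligodendrocytes at a ratio of 0.661. The part of either cell type in the Il33 value was not tested. Red blood cell markers were, like Il33, higher in every KO-IR library, at 2270, 1730 and 234 CPM in its replicates, and their part was not tested either. The receptor chain particular to interleukin 33, Il1rl1 (ST2), had 4, 10 and 6 counts in WT-IR and 2, 3 and 2 in KO-IR, at or near the floor. Il1rap, the partner chain that it shares with the interleukin 1 receptor, had 1495, 1288 and 1243 counts and then 1101, 1318 and 1372, a log2 fold change of −0.13 with a 95% interval of −0.45 to 0.18.

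Il15, which maintains natural killer cells and memory T cells, was higher in KO-IR on low counts. It had 10, 18 and 14 counts in WT-IR and 47, 48 and 35 in KO-IR, without overlap. The log2 fold change was 1.58 (SE 0.32, 95% interval 0.82 to 2.33, adjusted p = 0.0491 in edgeR's quasi-likelihood test), a 2.99-fold difference that lost its call whichever library was left out (adjusted p 0.0973 to 0.166). Il15ra, the chain that presents it, had 157, 144 and 108 counts and then 119, 107 and 129. Of its signalling chains, Il2rb was near the floor, with 5, 10 and 21 counts and then 12, 2 and 5, while Il2rg, the common gamma chain, had 40, 43 and 33 counts in WT-IR and 109, 68 and 62 in KO-IR.

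Il2rg was higher in every KO-IR library, with a log2 fold change of 1 (SE 0.3, 95% interval 0.29 to 1.7) and an adjusted p of 0.139. Gm20489 shares 30.5% of its exon bases in the annotation. Of the other ligands of the common gamma chain, Il2, Il7, Il9 and Il21 had at most 11 counts in any library, whereas Il4 had 105 to 174.

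Il18, which is activated by caspase 1 and drives interferon gamma, had 502, 548 and 529 counts in WT-IR and 861, 888 and 716 in KO-IR. All KO-IR libraries were higher, and the log2 fold change was 0.6 (SE 0.12, 95% interval 0.33 to 0.87, adjusted p = 0.0404 in edgeR's quasi-likelihood test), a 1.51-fold difference. It lost its adjusted p under 0.05 whichever library was left out (0.0547 to 0.144). Per length it was among the most abundant genes, with 14.5 FPKM on average in WT-IR and 21 FPKM in KO-IR. Il18bp, the secreted inhibitor that binds interleukin 18, differed the same way with 61, 62 and 52 counts in WT-IR and 93, 100 and 78 in KO-IR (log2 fold change 0.58, adjusted p = 0.198). The receptor chains Il18r1 and Il18rap had at most 6 counts in any library.

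The interleukin 1 ligands gave no difference that passed. Il1b had 13, 15 and 2 counts in WT-IR and 10, 19 and 6 in KO-IR (log2 fold change 0.16, 95% interval −1.52 to 1.83, adjusted p = 0.927). Il1a had 42, 41 and 41 counts and then 22, 0 and 28, lower in every KO-IR library, with a log2 fold change of −1.33 and an interval of −3.33 to 0.67, which moved to −0.74 without KO-IR replicate 2 and to −1.94 without KO-IR replicate 3. Il1rn, which encodes the receptor antagonist, had no count.

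Their signalling receptor Il1r1 was higher in every KO-IR library, with 103, 108 and 117 counts against 249, 173 and 136 (log2 fold change 0.73, SE 0.24, adjusted p = 0.174). Endothelial cells carry much of Il1r1 in the brain. In the KO-IR replicates Il1r1 was at 5.61, 3.73 and 3.1 CPM and the endothelial marker sum at 170, 107 and 156 CPM, and the part of these cells was not tested. KO-IR replicate 1 was also the highest KO-IR library for Ccl21a, Ccl19, Cxcl12, Il2rg and Tnfrsf1a. Il1r2, the decoy receptor, overlapped, with 8, 20 and 17 counts and then 17, 32 and 9. Il1rapl1, a synaptic adhesion protein named after the family, had 660, 765 and 853 counts in WT-IR and 641, 687 and 591 in KO-IR, which overlap. Scaled to library size, every KO-IR library was lower (14.4, 14.8 and 13.5 against 15.5, 17.9 and 18.8 CPM). The log2 fold change of Il1rapl1 was −0.29 (adjusted p = 0.246 in edgeR's quasi-likelihood test), and Il1rapl2 overlapped. Il4i1, an amino acid oxidase, had 24, 11 and 11 counts and then 9, 7 and 8, and shares 83.9% of its exon bases with Tbc1d17 on the opposite strand.

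In the interleukin 6 family, the shared signal chain Il6st (gp130) was abundant and varied more within the groups than between them. It had 2061, 2980 and 4225 counts in WT-IR and 1724, 2832 and 3054 in KO-IR (log2 fold change −0.32, 95% interval −0.98 to 0.35). Il6 had no count in any library, which allows at most 0.0716 CPM in a library for counting error alone. Il6ra overlapped between the groups, at 4.34 ± 0.601 and 4.61 ± 0.492 CPM (SD, n = 3).

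Il11, another ligand that signals through Il6st, had 31, 34 and 14 counts in WT-IR and 6, 12 and 14 in KO-IR (log2 fold change −1.35, SE 0.49, adjusted p = 0.211). The groups met at 14 counts. Il11ra2, a copy of the interleukin 11 receptor gene, had 90, 57 and 49 counts and then 41, 67 and 27 (log2 fold change −0.59, adjusted p = 0.467). It took 2.87 to 5.38% of the counts that it divides with Il11ra1 and Gm13305, and with all 3 summed the log2 fold change was −0.21.

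Among ligands and receptors of the interleukin 4 and 12 groups, Il4 had 132, 141 and 105 counts in WT-IR and 151, 174 and 147 in KO-IR, and its receptor Il4ra 207, 221 and 248 and then 263, 347 and 320. The log2 fold changes were 0.27 (adjusted p = 0.488) and 0.42 (adjusted p = 0.194). Il13 had a single count in 1 library. Il12a overlapped between the groups and Il12b had at most 2 counts, whereas Il12rb1, a receptor chain of interleukins 12 and 23, was lower in every KO-IR library with 106, 87 and 118 counts against 48, 73 and 38 (log2 fold change −1.01, SE 0.27, adjusted p = 0.104 in edgeR's quasi-likelihood test).

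In the interleukin 17 family, Il17d was the abundant ligand, with 800, 705 and 680 counts in WT-IR and 852, 951 and 1034 in KO-IR (log2 fold change 0.33, SE 0.13, adjusted p = 0.235). Il17a and Il17f had no count, and Il17b and Il25 overlapped between the groups at 6 to 27 counts. The common receptor chain Il17ra had 1256, 974 and 827 counts and then 1194, 1499 and 1693, a log2 fold change of 0.47 with a 95% interval of −0.01 to 0.95. Il17rb, the chain for Il25, was lower in every KO-IR library, with 75, 70 and 65 counts against 48, 44 and 49 (log2 fold change −0.62, adjusted p = 0.185), and Il17rc, Il17rd and Il17re overlapped.

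Over all 36 interleukin receptor chains, 25 were tested and none was called by edgeR or DESeq2, with a median log2 fold change of −0.24. Of these, 5 had an unadjusted p under 0.05 (20%, against 18.6% of all genes): Il1r1, Il2rg and Il4ra, higher in KO-IR, and Il12rb1 and Il17rb, lower. Il31ra, a chain of the interleukin 31 receptor, had 2, 8 and 10 counts in WT-IR and no count in KO-IR. Its WT-IR mean was 2.26 times the level with each KO-IR library set at 3 counts, without an error on that mean. Il22 had no count in WT-IR and 0, 8 and 9 counts in KO-IR, so the groups overlapped at 0. Its KO-IR mean was 1.83 times the same floor, again without an error on the mean. Both ratios take each count as an independent fragment, which is uncertain here. Iltifb, a copy with 97.3% identity, had no count in WT-IR and 0, 4 and 4 in KO-IR. Il12rb2 shares 40% of its exon bases with Serbp1 on the opposite strand, so its 8 to 12 counts are uncertain without strand. Il13ra1, Il3ra, Il7r, Il20ra, Il21r, Il27ra and Il1rl2 overlapped, and among them Il20ra varied most within the groups, with 4, 26 and 68 counts and then 45, 17 and 7. Il10 had no count, and its receptor chains Il10ra and Il10rb overlapped between the groups.

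**Figure D4:**
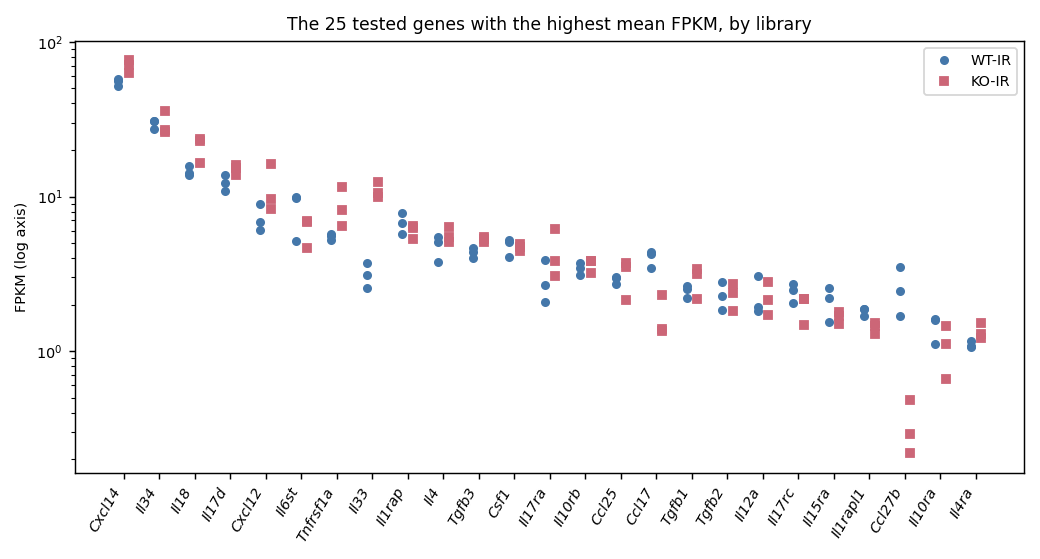
FPKM (y axis, log) of the 25 tested genes with the highest mean level, in order, with 1 point per library for WT-IR (circles) and KO-IR (squares). The points of Il33, Il18 and Cxcl14 are higher in KO-IR, those of Ccl27b and Ccl17 lower, and those of Il34, Csf1 and Il1rap lie on each other.

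No difference was detected in the microglial growth factors. Il34 was the second most abundant gene per length, with 29.7 FPKM on average in WT-IR and 29.6 FPKM in KO-IR, and 2278, 2443 and 2226 counts against 2219, 2702 and 2225. Its log2 fold change was −0.00 with a 95% interval of −0.25 to 0.24. Csf1 had 894, 832 and 700 counts in WT-IR and 787, 840 and 875 in KO-IR, a log2 fold change of −0.00 with an interval of −0.32 to 0.32. Csf1r, the receptor of both, had 2455, 2790 and 2666 counts in WT-IR and 2106, 2169 and 1917 in KO-IR, lower in every library (log2 fold change −0.40, SE 0.09, adjusted p = 0.0731 in edgeR's quasi-likelihood test).

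The transforming growth factor betas, which restrain microglia and shape scars, split between a separated and 2 overlapping genes. Tgfb3 had 752, 707 and 700 counts in WT-IR and 876, 952 and 955 in KO-IR (log2 fold change 0.32, SE 0.1, 95% interval 0.08 to 0.56, adjusted p = 0.158). Tgfb1 had 264, 268 and 247 counts and then 375, 228 and 349, and Tgfb2 had 425, 531 and 545 and then 615, 446 and 621. KO-IR replicate 2 was the lowest KO-IR library for both.

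Tnf, the inflammatory ligand that the study names beside Il1b, had 4, 4 and 2 counts in WT-IR and 6, 0 and 0 in KO-IR, so a difference could not be detected at this depth. By RT-qPCR of the cortex, the study reports that irradiation raised Il1b and Tnf and lowered Il6, and that Lgmn knockout reversed this. The counts of these genes here are too low to be set against that report. Both receptors of Tnf were well measured. Tnfrsf1a had 545, 570 and 548 counts and then 808, 592 and 699, a log2 fold change of 0.3 with a 95% interval of −0.05 to 0.65. Tnfrsf1b, the receptor that microglia carry, had 155, 223 and 213 counts and then 162, 161 and 170, a log2 fold change of −0.3 with an interval of −0.72 to 0.12.

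Other genes of the pathways were read from a list of 74 genes with the remaining chemokine ligands and receptors, further receptor chains and signal carriers. Of these, 67 were tested and 1 was called, Tirap, an adaptor of Toll-like receptors, which was lower with 143, 121 and 99 counts in WT-IR and 33, 44 and 44 in KO-IR (log2 fold change −1.63, adjusted p = 0.0172 in edgeR's quasi-likelihood test). That is 1.49%, against 2.06% of all genes. Stat2, a carrier of interferon signals, had 727, 663 and 774 counts and then 531, 537 and 449 (log2 fold change −0.55, adjusted p = 0.0496). The median log2 fold change of the 67 was 0.02, and 10 had an unadjusted p under 0.05 (14.9%, against 18.6% of all genes).

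Cx3cl1, the neuronal chemokine that binds Cx3cr1 on microglia, was uneven within KO-IR. It had 38657, 35758 and 38486 counts in WT-IR and 4505, 46700 and 5503 in KO-IR. KO-IR replicates 1 and 3 were far below every WT-IR library and replicate 2 above them all, and the log2 fold change was −1.07 (SE 0.82, adjusted p = 0.531). Cx3cr1 had 282, 218 and 253 counts and then 258, 139 and 113.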

How the data were processed

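Bulk polyA RNA-seq of 6 irradiated cortices was analysed, 3 per genotype, grouped by the labels. The authors deposited raw counts per gene and FPKM values, which they normalized for gene length and depth. Per the submitters' processing notes, reads were trimmed with Trimmomatic 0.36, and the build was GRCm38; the counting program, its annotation and its use of strand are not given in the sources used here. Of the low values of 1 to 20 counts in the genes described, 73.7% were even (55.8% over all genes), so counts may not be single independent fragments. The floor of 3 counts assumes that they are, so the floors given for Ccl2, Il6, Il31ra and Il22 may be too low.

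The counts (41874462 to 46829441 per library) were tested with edgeR 4.0.16 (quasi-likelihood test, TMM, filterByExpr by genotype, no covariate), with Benjamini-Hochberg adjustment over 18345 genes. A gene was called with a log2 fold change beyond 1 in either direction and adjusted p below 0.05. Fold changes are KO-IR minus WT-IR, SE is the fold change divided by the root of F, and CPM uses TMM-scaled libraries. FPKM served for levels between genes. The procedure was tested on simulated counts. Alternatives used DESeq2 1.42.0, limma 3.58.1 with voom or log2(FPKM + 1) and log2(FPKM + 0.1), other normalizations and filters, each library left out, and copies summed. Copies were found with BLAST 2.17.0+ among GENCODE M21 transcripts, which also gave positions and sequences. The replicates of a group are separate mice, and libraries of a group differed beyond counting noise.

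The genes and lists were chosen with earlier results of these data known. Named with values were genes with an adjusted p under 0.05, the 5 largest and 5 smallest fold changes, the 8 highest FPKM means, genes the study names, chosen regulators (such as Cxcl12, Csf1 and the Tgfb genes), the chromosome 4 copies, and by role other genes with 10 counts in 3 libraries. The replicate numbers do not pair mice. Intervals and floors of 3 counts cover counting error only where said so. The values of 1 gene are not reported here, and it is left out of the plot of fold changes.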

Additional observations from a re-analysis of the deposited data

How the results depend on the processing

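Of the 27 named genes tested, 22 kept their sign in each of the 17 alternative settings that gave them a value, copy sums aside (8 of the 27 were not tested with 10 counts in every library), and Il33 stayed called in all 17 (log2 fold change 1.55 to 2.01). The count of called genes among the chemokine and interleukin genes was 3. It was 7 with DESeq2 (Ccl17, Ccl21a, Ccl28 and Ccl9 added), 1 with a replicate block, and 1 to 3 with each library left out. Over all genes, 377 were called, against 590 with DESeq2, 228 with 10 counts in every library, 171 on log2(FPKM + 1), 139 with a replicate block and 200 to 326 with each library left out; the causes were not tested, except that the stricter filter tests fewer genes. Replicate numbers mark different mice, and same-numbered libraries did not deviate together (correlations −0.252 to −0.0276), so the replicate block pairs nothing. Under it the adjusted p of Il15, Il18 and Ccl27b was 0.157, 0.131 and 0.0627. Il15 kept an adjusted p under 0.05 in 5 and Il18 in 4 of 17 settings, and Ccl17 gained one in 5.

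The log2 fold change changed sign in the following. That of Csf1 was 0.0087 with RLE size factors, 0.02 with DESeq2, 0.01 with voom, 0.0083 without a filter, 0.0089 with the replicate block, and −0.12 to 0.10 with each library left out. Il34 was 0.0046, 0.01 and 0.0039 with RLE, DESeq2 and no filter, and −0.07 to 0.05. Cxcr4 was −0.0022 with upper-quartile scaling, −0.03 with library size only, −0.08 with voom, −0.02 and −0.10 on the FPKM scales, −0.05 with the replicate block, and −0.26 to 0.33. Tgfb2 was −0.006 and −0.008 on the FPKM scales, and Il1b was −0.35 to 0.57 with each library left out. Il1a kept its sign but was −2.69 with voom. Ccl27b turned to 1.08 when summed with Ccl27a and to 0.84 over all copies, the latter sum chosen after seeing the data. Depth limits the 72 genes with fewer than 10 counts in 3 libraries.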
